A study of Homo sapiens with 24 samples.

Results

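LOUCY is a human T-cell acute lymphoblastic leukaemia line that stands for the early T-cell precursor subtype of that leukaemia. The comparison described here sets its libraries treated with JQ1 against its libraries treated with I-BET151, chosen by their treatment labels. These are 8 libraries of 24 in the series, 4 for each inhibitor. JQ1 was given at 250 nM and I-BET151 at 500 nM, each for 24 h, and 4 further LOUCY libraries kept for 24 h in 0.05% DMSO, the solvent, give the level without inhibitor. Each group held 2 libraries from each of 2 independent experiments. The doses differ, so an effect of the compound and an effect of the dose cannot be told apart. All groups are the same single cell line, grown in the same medium with 10% serum per the labels, and the labels name no genetic change. Because each library was made from bulk RNA, fewer cells expressing a gene and less RNA per cell cannot be told apart.

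BET proteins, such as BRD2 and BRD3, carry bromodomains that bind acetylated lysines on histones, and they bring the elongation kinase P-TEFb to promoters and enhancers. The scaffolds differ, JQ1 being a thienotriazolodiazepine while I-BET151 joins a dimethylisoxazole to a quinoline core, and both occupy the acetyl-lysine pocket and displace BET proteins from chromatin. In leukaemia cells BET inhibition is known for lowering lineage and growth genes kept high by large enhancers, and for raising HEXIM1, which holds P-TEFb inactive.

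Levels are the authors' RPKM, which scale reads by gene length and library size, and differences are on the scale log2(RPKM + 1), on which a difference of 1 is a doubling for a well expressed gene. In all, 11411 genes were tested with limma, in 1 model with experiment as a covariate. A gene passed at a Benjamini-Hochberg adjusted p under 0.05. The model held all 18 LOUCY libraries, the untreated ones included, so these also shaped the filter, the experiment term and the estimate of spread. A fit of the 12 inhibitor and DMSO libraries alone tested 11075 genes. It called 2364 with JQ1 against DMSO, where the main fit called 2971, and 1 between the inhibitors. The 12 inhibitor and DMSO libraries held 4381134 to 7074198 reads in listed genes. All 7 LOUCY marker genes stood at 1.93 RPKM or more in each of these libraries. Of 12 markers of other cell types in the table, 9 were under 1 RPKM throughout. The sum over all 12 was 2.33 to 4.31 RPKM with JQ1, 3.6 to 4.39 with I-BET151 and 10.2 to 13 with DMSO. CD1A and MPO had the highest single values of the 12, at 6.2 and 3.68 RPKM. A pair of libraries stood apart in how their deviation from the mean of their own treatment group varied with gene GC content. The slopes, in log2 units per 10 percentage points, were -0.331 in I-BET151 replicate 1 of experiment 2 and -0.298 in DMSO replicate 1 of experiment 2. They were -0.08 to 0.163 in the other 10. Slopes taken this way balance out within a group, and a GC trend shared by a whole group cannot be seen in them.

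The question of this comparison is which genes respond differently to the 2 inhibitors. With JQ1 set against I-BET151, 0 of 11411 genes passed (limma, 0% of genes), and the lowest adjusted p was 0.579. At an unadjusted p under 0.05, 239 genes were higher with JQ1 (2.09%) and 292 were lower (2.56%), and voom on reads recovered from the RPKM also called 0 genes, with 489 at an unadjusted p under 0.05. That number, 531 in all, was 1159 without I-BET151 replicate 2 of experiment 2, 890 with the GC trend removed and 1080 with weighted libraries. It was 952 in experiment 1 alone and 209 in experiment 2 alone. Without the 2 libraries of steep GC slope, a setting chosen after seeing the data, it was 722. The lowest limma adjusted p was then 0.0581, and with the GC trend removed it was 0.122. With libraries weighted by their quality in limma, 15 genes passed, 4 higher with JQ1 and 11 lower. Among them were HIST1H2BK, RRM2, SNX10, AIG1, PTRHD1 and CLEC2B, described below. The same libraries differed from DMSO at many genes. With JQ1, 1157 genes rose (10.1%) and 1814 fell (15.9%), and with I-BET151, 1180 rose (10.3%) and 1819 fell (15.9%). Those last 2 comparisons share the DMSO libraries, so their counts are given side by side and their likeness is not used as a result.

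An adjusted p above the threshold does not show that the inhibitors act alike, so the width of the intervals matters. The 95% interval of the difference between JQ1 and I-BET151 lay within 1 log2 unit of 0 on both sides for 11200 genes (98.2%), and within 0.5 for 7195 (63.1%). From its estimate an interval reached a median of 0.32 to either side, before any adjustment for the number of genes. The adjusted threshold asks for more, so differences well above 0.32 could also go uncalled with 4 libraries a group. SNX10, described below, differed by -0.52 at a limma adjusted p of 0.579. The reach of an interval ranged from a median of 0.27 for genes over 100 RPKM, behind which stood a median of 1657 reads per library, to 0.36 for genes averaging under 1 RPKM, with 8.5 reads. The log2(RPKM + 1) scale compresses differences of low genes, which narrows their intervals. Of 751 genes under 1 RPKM, 736 (98%) lay within 1 log2 unit, which therefore says little about likeness at such genes. The estimated difference was over 1 in size for 13 genes, and 12 of these were small RNA genes, which libraries of this kind measure poorly.

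The mean of both inhibitors was then set against DMSO, a contrast that carries no information on how the inhibitors differ. It called 1519 genes that rose (13.3%) and 2154 that fell (18.9%). Over the genes that rose, the median change was 0.50 with JQ1 and 0.52 with I-BET151, and the median difference between them was 0.01 (0.02 without the I-BET151 library of steep GC slope). Over the genes that fell, the median changes were -0.58 and -0.57, with a median difference of 0.003 (-0.03 without that library). For the 361 genes that fell by at least 1, the medians were -1.32 and -1.28, and 183 of them (50.7%) lay higher with JQ1, against 47.6% of all genes tested. The 90 genes that rose by at least 1 had medians of 1.28 with JQ1 and 1.17 with I-BET151. Their median difference was 0.09 and 53 of the 90 were higher with JQ1. Of these 90, 18 were higher with JQ1 at an unadjusted p under 0.05 and 4 were lower, and 10 of the 90 have a HIST symbol and are described below.

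**Figure D1:**
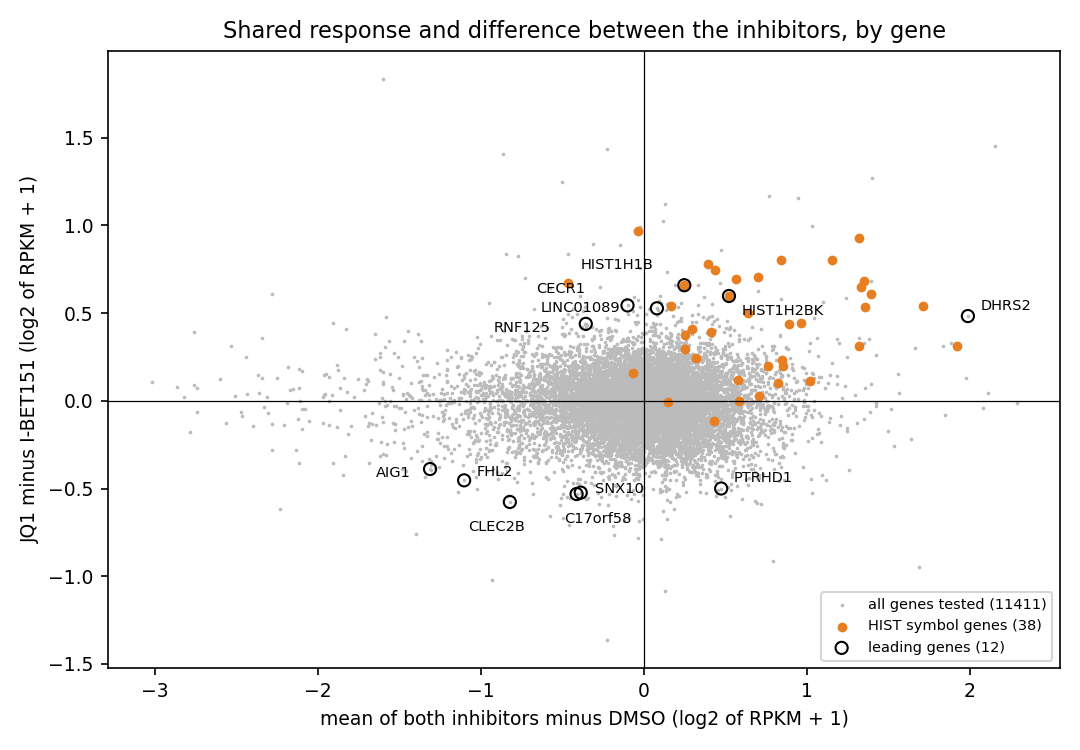
Each point is 1 of the 11411 genes tested, with the mean of both inhibitors minus DMSO on the horizontal axis and JQ1 minus I-BET151 on the vertical axis, both on the log2(RPKM + 1) scale. Orange points are the 38 genes with a HIST symbol and black circles the 12 leading genes. The cloud is wide along the shared response and narrow across it, and 35 of the 38 orange points lie above 0.

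The 2 experiments used separate libraries throughout, so the difference could be read in each alone. Across the 11411 genes, which are not independent of each other, the difference between JQ1 and I-BET151 in experiment 1 and in experiment 2 had Pearson's r = 0.0167. Without I-BET151 replicate 1 of experiment 2 it was 0.241. For the mean of both inhibitors minus DMSO, the same measure was 0.824. The pattern of differences between the inhibitors thus recurred far less between experiments than the shared response did, without a test of that contrast. A test of whether the difference itself varied with the experiment called 0 genes (limma, lowest adjusted p = 0.903; 326 genes at an unadjusted p under 0.05). Without I-BET151 replicate 2 of experiment 2, which leaves the library of steep GC slope as the I-BET151 library of that experiment, 2 genes passed (lowest adjusted p = 0.0179) and 3156 reached an unadjusted p under 0.05.

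**Figure D2:**
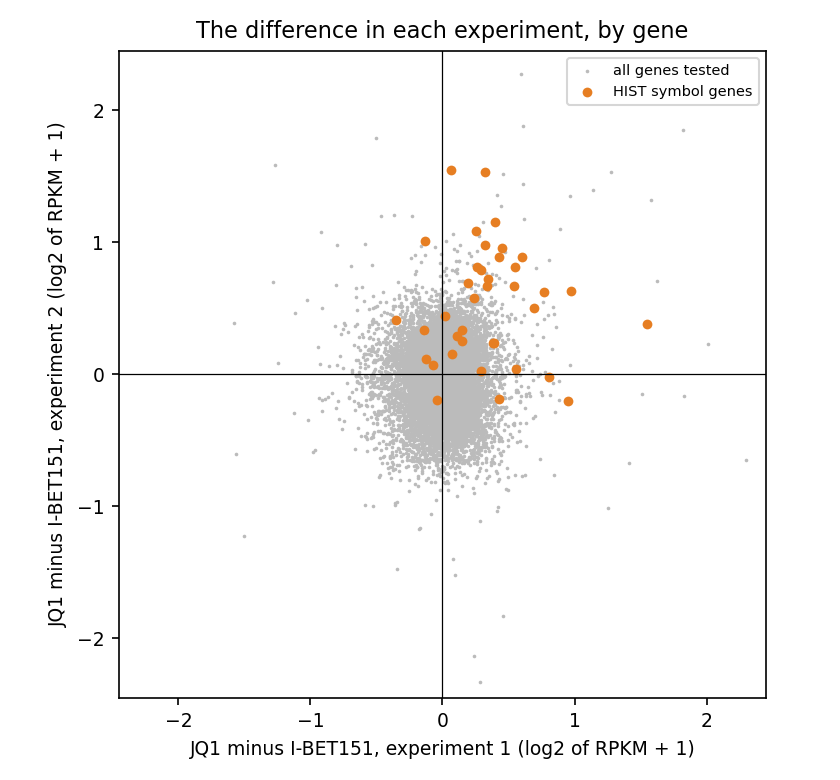
JQ1 minus I-BET151 in experiment 1 (horizontal) and in experiment 2 (vertical), on the log2(RPKM + 1) scale, with each point a gene and genes with a HIST symbol in orange. The grey cloud shows little slope (r = 0.0167), and 29 of the 38 orange points lie above 0 on both axes.

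The drug targets and their partners were read first. HEXIM1, the inhibitor of P-TEFb (chromosome 17, 45148502 to 45152101), stood at 19.9, 18, 22.8 and 18.2 RPKM in the 4 DMSO libraries. It was at 54, 54.1, 55.3 and 49.1 RPKM with JQ1 and at 43.6, 48.9, 60.5 and 50.4 with I-BET151. Every inhibitor library lay above every DMSO library, and the inhibitor groups overlapped. It rose by 1.39 with JQ1 (SE 0.11, limma adjusted p = 6.40e-08) and by 1.32 with I-BET151 (adjusted p = 1.15e-07), and the difference was 0.07 with a 95% interval from -0.17 to 0.31.

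BRD2, a BET protein and so a direct target (chromosome 6, 32968660 to 32981505), had levels of 7.28, 7.15, 5.31 and 7.19 RPKM with DMSO. With JQ1 it stood at 13.6, 11.7, 11.5 and 11.4 RPKM, and with I-BET151 at 9.71, 8.85, 8.45 and 8.26. The 3 groups did not overlap, and I-BET151 lay in the middle. BRD2 rose by 0.76 with JQ1 (limma adjusted p = 0.000343). I-BET151 minus DMSO was 0.35 (adjusted p = 0.0605), and it passed in 7 other settings, at 0.338 to 0.432. These were quantile normalization, the GC trend removed with and without the replicate block, the fit of 12 libraries, weighted libraries, voom, and without DMSO replicate 2 of experiment 2. JQ1 minus I-BET151 was 0.41 (95% interval 0.12 to 0.69), 0.40 in experiment 1 and 0.41 in experiment 2, and did not pass (adjusted p = 0.964). BRD3, another BET protein, differed between the inhibitors by 0.04 (-0.15 to 0.24) and did not pass against DMSO with either.

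Over the 18 genes of the list of BET proteins, HEXIM and elongation factors, 3 rose and 1 fell with JQ1, and 2 rose and 2 fell with I-BET151. Of all genes, 10.1% rose and 15.9% fell with JQ1, and 10.3% and 15.9% with I-BET151. The counts among the 18 are too small to read as a result about the list. The risers were HEXIM1, BRD2 and AFF4 with JQ1 and HEXIM1 and ELL2 with I-BET151. AFF4 and ELL2 belong to the super elongation complex. None passed between the inhibitors (limma), and 11 of the 18 lay higher with JQ1, with a median difference of 0.03 against -0.01 over all genes tested. The intervals of all 18 lay within 1 log2 unit of 0. HEXIM2, the paralogue of HEXIM1, fell with both, by 0.84 and 0.69, and differed between them by -0.15 (-0.60 to 0.30). MED1, a Mediator subunit, was the other to fall with I-BET151, by 0.45. AFF4, ELL2, MED1 and HEXIM2 were named after their values were seen.

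Genes that rose under both inhibitors were read next. CDKN1A, the cell-cycle inhibitor p21 (chromosome 6, 36676460 to 36687339), went from 4.27, 6.84, 4.41 and 6.37 RPKM with DMSO to 30.4, 22.6, 26.8 and 21.9 with JQ1. With I-BET151 its levels were 25.5, 21.9, 17.6 and 28 RPKM. Both inhibitor groups lay clear of DMSO and overlapped each other. The difference between them was 0.13, with an interval from -0.55 to 0.81. The largest shared rise was that of EFR3B, a plasma membrane scaffold for a phosphoinositide kinase, from 0.871 ± 0.278 RPKM (mean ± SD, n = 4 in each group) to 8.03 ± 0.786 with JQ1 and 8.16 ± 1.3 with I-BET151. Its difference was -0.01 (-0.28 to 0.25). SMIM14, a small membrane protein, and ELOVL4, an elongase of very long fatty acids, rose by 2.13 and 2.06 with JQ1 and by 2.09 and 2.10 with I-BET151. HIST1H2BG, a histone H2B gene, rose by 2.08 and 1.76, with a difference of 0.31 (-0.17 to 0.80).

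HOXA9, a homeobox factor of stem and progenitor cells (chromosome 7, 27162435 to 27175180), rose from 22 ± 3.27 to 49 ± 6.97 RPKM with JQ1 and 45.9 ± 10.1 with I-BET151, a difference of 0.11 (-0.17 to 0.39). SERPINI1, a serine protease inhibitor that serves as a marker of BET inhibition, rose by 0.73 and 0.79. TIPARP, a target of the aryl hydrocarbon receptor, stood at 1.27, 1.07, 1.61 and 0.536 RPKM with DMSO, at 3.22, 3.18, 2.47 and 3.04 with JQ1 and at 3.11, 2.98, 6.96 and 2.41 with I-BET151. It rose with both inhibitors. The highest value was the I-BET151 library of steep GC slope, and the difference of -0.21 turned to 0.04 without that library. CYP1B1, another target of the same receptor, reached at most 0.616 RPKM in any LOUCY library and was not tested.

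Genes that fell were read in the same way. VPREB1, a component of the pre-B-cell receptor (chromosome 22, 22244675 to 22245515), fell from 591.2, 607, 448.3 and 563.1 RPKM with DMSO to 80.5, 74.4, 75.8 and 76.2 with JQ1. With I-BET151 it stood at 97.4, 91.2, 44 and 70.4 RPKM. The JQ1 values lay inside the range of the I-BET151 values, whose lowest was the library of steep GC slope. The difference was 0.08 (-0.23 to 0.39), and -0.10 without that library. LCK, the proximal T-cell receptor kinase, fell from 177.4 ± 27.1 RPKM to 39.7 ± 1.35 with JQ1 and 41.8 ± 9.06 with I-BET151, a difference of -0.05 (-0.33 to 0.24). MB, which encodes myoglobin, HPGDS, a prostaglandin D synthase, GLDC, the glycine decarboxylase, and ACTG2, a smooth muscle actin, had, with VPREB1, the 5 largest falls of the mean of both inhibitors. These 4 fell by 2.72 to 2.97 on the log2 scale with JQ1 and by 2.69 to 3.07 with I-BET151. ACTG2 differed by -0.80 in experiment 1 and by 0.98 in experiment 2.

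MYCN, a growth-promoting transcription factor of the MYC family (chromosome 2, 15940564 to 15947007), stood at 12.3, 10.8, 14.1 and 12.3 RPKM with DMSO. It was at 1.54, 3.73, 4.79 and 2.69 RPKM with JQ1 and at 3.49, 3.93, 3.91 and 4.54 with I-BET151. It fell by 1.74 with JQ1 and by 1.43 with I-BET151, and the groups overlapped, with a difference of -0.31 (-0.74 to 0.12). BCL2, which blocks apoptosis, fell from 3.83 ± 0.56 to 0.605 ± 0.213 and 0.769 ± 0.31 RPKM, a difference of -0.13 (-0.46 to 0.19). MYB, a progenitor transcription factor, fell with both, by 0.92 and 0.79, and LYL1, another, by 1.06 with each.

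HHEX, a homeobox factor of early progenitors, passed with JQ1 (-0.61, limma adjusted p = 0.0247) and not with I-BET151 (-0.46, adjusted p = 0.0897). The I-BET151 value rested on the library of steep GC slope, at 147.5 RPKM against 57.8, 70.2 and 75 in the other I-BET151 libraries. Without it I-BET151 passed too (-0.69). The JQ1 call was lost without any 1 of 3 DMSO or 3 JQ1 libraries (DMSO replicates 1 and 2 of experiment 1 and 1 of experiment 2, JQ1 replicate 1 of experiment 1 and both of experiment 2), at -0.551 to -0.59. The difference between the inhibitors, -0.16 with an interval from -0.56 to 0.25, turned to 0.08 without the I-BET151 library. CDK6, a D-cyclin partner, was not past the threshold with either, at 77.6 ± 5.22 RPKM with JQ1 and 90.8 ± 24.8 with I-BET151 against 100.5 ± 10.6 with DMSO. Without that library both passed, at -0.365 and -0.382.

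**Figure D3:**
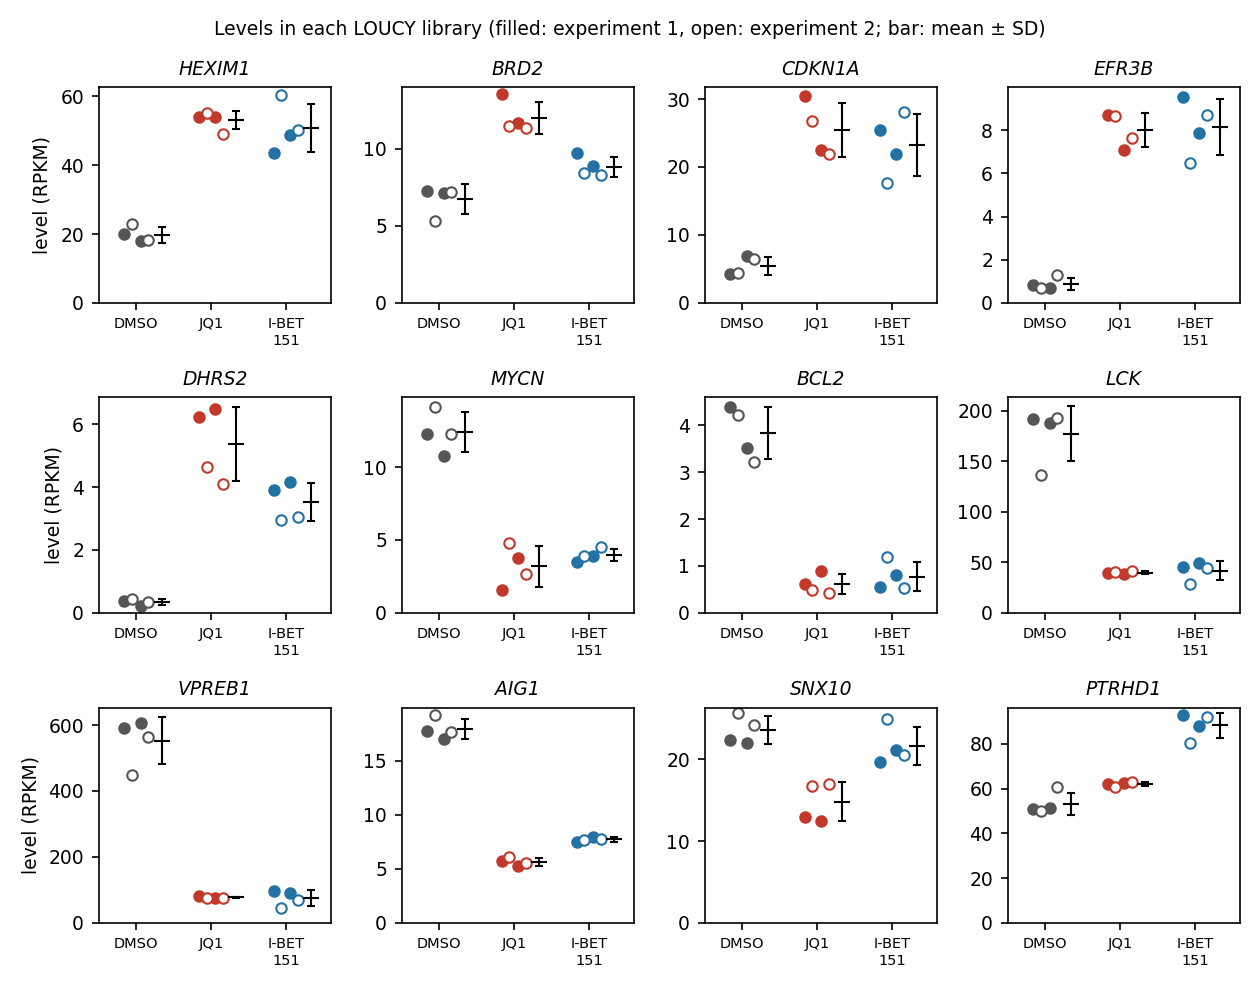
Levels of 12 genes in RPKM on the vertical axis in DMSO, JQ1 and I-BET151 libraries of LOUCY (filled points are experiment 1, open points experiment 2, and the bar beside them is the mean ± SD, n = 4 each). HEXIM1, CDKN1A and EFR3B lie at like levels with both inhibitors, as do BCL2, LCK and VPREB1, while the JQ1 and I-BET151 points do not overlap for BRD2, AIG1, SNX10 and PTRHD1.

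The leading genes of JQ1 against I-BET151 were the 6 of smallest unadjusted p in each direction, among genes whose sign matched between experiments and whose higher group averaged 5 RPKM or more. Since they were chosen for small p, their separation is a description. None passed (limma adjusted p = 0.579 to 0.704). Higher with JQ1 were LINC01089, HIST1H1B, HIST1H2BK, CECR1, RNF125 and DHRS2. Lower with JQ1 were SNX10, AIG1, PTRHD1, C17orf58, FHL2 and CLEC2B.

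Some of these moved the same way with both inhibitors and further with JQ1. AIG1, a membrane hydrolase of fatty acid esters (chromosome 6, 143060496 to 143340304), stood at 17.8, 17, 19.2 and 17.7 RPKM with DMSO. Its levels were 5.76, 5.24, 6.11 and 5.55 RPKM with JQ1 and 7.5, 7.98, 7.64 and 7.75 with I-BET151. The 3 groups did not overlap. AIG1 fell by 1.51 with JQ1 and by 1.12 with I-BET151, and the difference was -0.39 (95% interval -0.57 to -0.21).

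FHL2, a LIM-domain cofactor, fell from 43.3 ± 7.77 to 16.8 ± 3.93 RPKM with JQ1 and 23.3 ± 4.9 with I-BET151, a difference of -0.45 (-0.68 to -0.22). CLEC2B, a C-type lectin that binds an activating receptor of natural killer cells, fell by 1.11 and 0.53, a difference of -0.58 (-0.88 to -0.27). DHRS2, a short-chain dehydrogenase (chromosome 14, 23630115 to 23645639), was at 0.364, 0.23, 0.442 and 0.332 RPKM with DMSO. It reached 6.22, 6.49, 4.65 and 4.08 RPKM with JQ1 and 3.9, 4.17, 2.96 and 3.05 with I-BET151. Within each experiment both JQ1 libraries lay above both I-BET151 libraries, although 1 value of experiment 2 with JQ1 was below 1 of experiment 1 with I-BET151. DHRS2 rose by 2.23 and 1.75, a difference of 0.48 (0.20 to 0.76).

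Others passed against DMSO with 1 inhibitor and not with the other, although the difference between the inhibitors itself did not pass for any of them. SNX10, a sorting nexin of endosomes (chromosome 7, 26291895 to 26374329), stood at 22.4, 22, 25.7 and 24.2 RPKM with DMSO, at 13, 12.5, 16.8 and 16.9 with JQ1 and at 19.7, 21.2, 25 and 20.5 with I-BET151. It fell by 0.65 with JQ1 (limma adjusted p = 0.000274), and with I-BET151 the difference from DMSO was -0.13 (adjusted p = 0.449). JQ1 minus I-BET151 was -0.52 (-0.76 to -0.29). C17orf58 gave a like reading, at 14.6 ± 2.05 RPKM with DMSO, 8.68 ± 0.68 with JQ1 and 13.1 ± 1.81 with I-BET151. PTRHD1, named for a peptidyl-tRNA hydrolase domain (chromosome 2, 24789734 to 24793382), ran the other way. Its levels were 50.9, 51.2, 49.8 and 60.7 RPKM with DMSO, 62.2, 62.4, 60.7 and 62.9 with JQ1 and 92.7, 87.9, 80.4 and 92.2 with I-BET151. It rose by 0.72 with I-BET151 (adjusted p = 0.000109), against 0.22 with JQ1 (adjusted p = 0.161), a difference of -0.50 (-0.74 to -0.26).

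RNF125, a ubiquitin ligase, fell with I-BET151, from 5.7 ± 0.348 to 3.53 ± 0.653 RPKM (limma adjusted p = 0.0012), and stood at 5.1 ± 0.51 with JQ1 (adjusted p = 0.427). CECR1, the secreted adenosine deaminase ADA2, was at 19.2 ± 4.24 RPKM with DMSO, 21.4 ± 2.04 with JQ1 and 14.6 ± 3.24 with I-BET151, and passed with neither, although without DMSO replicate 1 of experiment 2 it fell with I-BET151 by 0.49. The noncoding RNA LINC01089 rose with JQ1 from 14.9 ± 2.52 to 19.1 ± 1.96 RPKM, at a limma adjusted p = 0.0468, and was at 13 ± 1.58 with I-BET151. That rise was not past the threshold when any 1 of the DMSO, JQ1 or experiment 1 I-BET151 libraries was left out, DMSO replicate 2 and JQ1 replicate 2 of experiment 1 apart, at 0.256 to 0.388.

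Histone genes lay to one side of the comparison. Replication-dependent histone genes sit in clusters, and most of their mRNAs end in a stem-loop without a poly(A) tail. These libraries were primed from poly(A), which favours polyadenylated forms, although the ends of the transcripts were not examined. All 38 tested genes with a HIST symbol were gathered after the values were seen, and 35 of them are on chromosome 6. Their near-identical copies make the assignment of reads between members uncertain. None passed between the inhibitors (limma). With JQ1, 35 of the 38 were higher than with I-BET151, 29 of them in both experiments, and the median difference was 0.44 (0.32 in experiment 1 and 0.54 in experiment 2) against -0.01 over all genes tested. At an unadjusted p under 0.05, 17 were higher and 0 lower, against 2.09% and 2.56% of all genes.

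Against DMSO, 22 of the 38 rose with JQ1 and 0 fell, and 13 rose with I-BET151 and 1 fell. Of all genes, 10.1% and 10.3% rose and 15.9% fell with each. The median changes were 0.87 and 0.50. Per library, the median over the 38 genes relative to the DMSO libraries of the same experiment was 0.89, 0.70, 1.03 and 0.77 with JQ1. It was 0.71, 0.35, 0.24 and 0.55 with I-BET151. The ranges overlapped by 1 library on each side when the experiments were pooled, and within each experiment the groups overlapped in experiment 1 and not in experiment 2. Without the I-BET151 library of steep GC slope, which gave the value of 0.24, the median difference was 0.36, and 35 of the 38 were higher with JQ1. With a pseudocount of 5 in place of 1 the median was 0.26, with 35 of 38 higher. In a list of polyadenylated histone genes, chosen with earlier results known, 15 of 16 tested were higher with JQ1. The median difference of that list was 0.57 (0.52 without the library of steep GC slope). Its medians per library, 1.02 to 1.26 with JQ1 and 0.55 to 0.72 with I-BET151, did not overlap.

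By family, the linker histones H1 were higher with JQ1 for 4 of 4 genes, with differences of 0.61 to 0.71. The core histones H2A were higher for 9 of 9 and H2B for 8 of 9, with medians of 0.30 and 0.54. H3 was higher for 8 of 9 (median 0.53) and H4 for 6 of 7 (median 0.24). The exceptions were HIST1H2BH, HIST1H3I and HIST1H4E, at -0.002, -0.12 and -0.005.

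For 8 of the 38 every JQ1 library lay above every I-BET151 library, and for 0 every one lay below, against 1.36% and 1.18% of all genes. HIST1H1C, a linker histone gene (chromosome 6, 26055787 to 26056428), was 1 of them. Its levels were 19, 21.7, 17.9 and 23.5 RPKM with DMSO, 66.4, 63.2, 71.9 and 73 with JQ1 and 47, 41.4, 40.9 and 49.8 with I-BET151. The 3 groups were well apart. It rose by 1.70 and 1.09, and the difference was 0.61 (95% interval 0.22 to 0.99). HIST1H2AC, an H2A gene (chromosome 6, 26124145 to 26139116), stood at 33.5, 26.7, 35.5 and 32.4 RPKM with JQ1 and at 18.8, 21.5, 15.8 and 22.6 with I-BET151, from 13.9, 6.39, 7.92 and 9.92 with DMSO. It rose with both, and the difference was 0.68 (0.27 to 1.09).

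HIST1H2BK, an H2B gene (chromosome 6, 27146418 to 27146798), was at 47.1, 54.3, 69.9 and 43.2 RPKM with DMSO, 84.8, 95.9, 97.4 and 98.1 with JQ1 and 62.1, 49.7, 78.8 and 59.7 with I-BET151. The I-BET151 and DMSO values overlapped and the JQ1 values lay above both. It rose with JQ1 by 0.82 (limma adjusted p = 0.000391), and I-BET151 minus DMSO was 0.22 (adjusted p = 0.288). HIST1H1B, another linker histone gene, was at 20.9, 17.3, 15.8 and 15.8 RPKM with JQ1 and at 16.2, 11.9, 6.54 and 9.91 with I-BET151. It was higher in every JQ1 library within each experiment, and the difference was 0.66 (0.33 to 0.98). HIST1H1D fell with I-BET151 by 0.80 (limma adjusted p = 0.0337), and with JQ1 it differed from DMSO by -0.13 (adjusted p = 0.771). Its levels were 16.3, 13, 8.45 and 11.1 RPKM with DMSO and 15.1, 6.54, 3.99 and 3.98 with I-BET151, so these groups overlapped. JQ1 minus I-BET151 for HIST1H1D was 0.26 in experiment 1 and 1.08 in experiment 2. HIST1H4C, which had the highest level of the 38, stood at 3622 ± 805 RPKM with JQ1, 2830 ± 1117 with I-BET151 and 2563 ± 593 with DMSO. HIST1H1B and HIST1H2BK are leading genes, chosen for small p. The other members here and those in the next sentences were chosen after their values were seen.

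Histone genes with other symbols, which are mostly replication-independent variants with ordinary poly(A) tails, gave a mixed picture. Of 11 tested, 6 were higher with JQ1 and 3 of those in both experiments, with a median difference of 0.01 (0.21 in experiment 1 and -0.11 in experiment 2). The 3 were H1F0, H1FX and H2AFX, at 0.48, 0.33 and 0.29. A median without the library of steep GC slope was not computed. H2AFZ stood at 5275 RPKM in that library, against 2041 in the other I-BET151 library of experiment 2. H2AFX, the H2A.X variant that marks DNA breaks, was at 37.9 ± 2.64 RPKM with JQ1 and 31 ± 4.97 with I-BET151. H2AFV, an H2A.Z form, was at 67, 68.5, 69 and 66.1 RPKM with JQ1 and at 73.8, 70.1, 111.8 and 70.1 with I-BET151. Its JQ1 values lay below each I-BET151 value, and 111.8 was the library of steep GC slope, the other 3 being close to the JQ1 values. H2AFY, the macroH2A gene, fell with both, from 460.6 ± 23.9 to 212.1 ± 8.61 and 223.6 ± 15.8 RPKM.

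Histone mRNA rises in S phase, so genes of DNA replication were read beside it. Of 26 in the list, 18 were higher with JQ1, with a median difference of 0.08 (0.04 in experiment 1 and 0.14 in experiment 2). Without the library of steep GC slope, whose median over the list was -0.24 relative to DMSO against -0.03 to 0.05 in the other 7 inhibitor libraries, that difference was 0.04. Against DMSO, 4 of 26 rose with JQ1 and 1 with I-BET151, beside 10.1% and 10.3% of all genes. These counts are too small to read as a result about the list. RRM2, the ribonucleotide reductase subunit, was among the 4 that rose with JQ1, at 191 ± 31 RPKM with JQ1, 151.3 ± 14.1 with I-BET151 and 126.4 ± 10.3 with DMSO. It was named after its values were seen, and its difference of 0.33 was the highest of the 26. With weighted libraries it passed between the inhibitors (0.353, limma adjusted p = 0.0429). Whether a change in cycling cells takes part in the histone values was not tested.

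**Figure D4:**
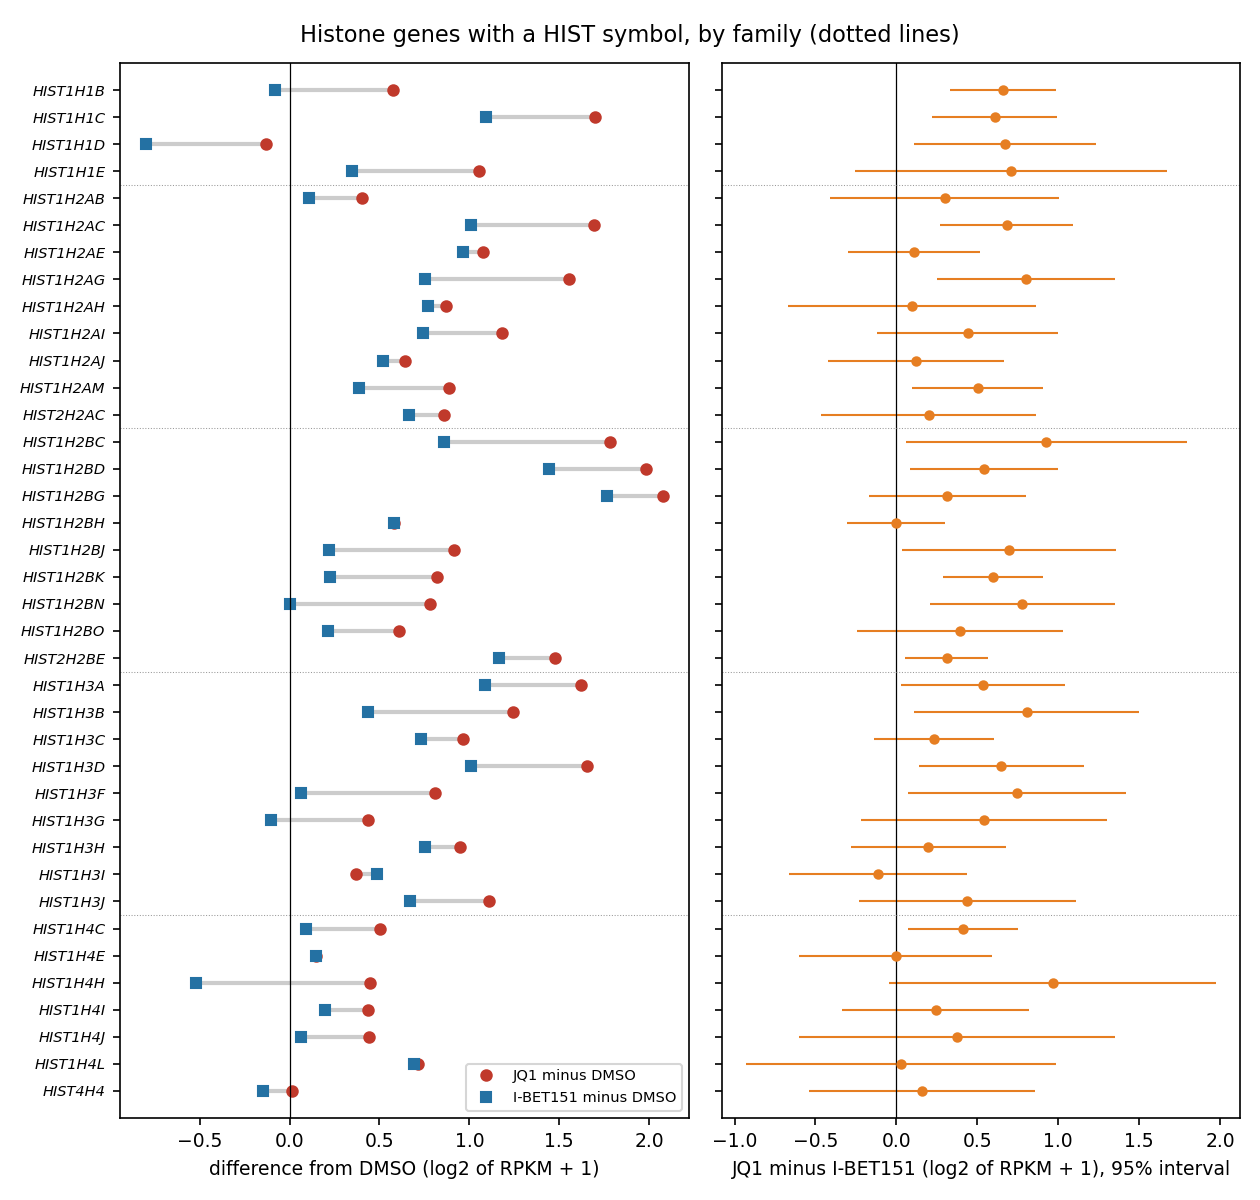
The 38 tested genes with a HIST symbol by family, H1 at the top and H4 at the bottom. Left, JQ1 minus DMSO (circles) and I-BET151 minus DMSO (squares), and right, JQ1 minus I-BET151 with its 95% interval, both on the log2(RPKM + 1) scale. The circle lies to the right of the square for 35 genes, and 17 of the intervals lie wholly above 0.

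Of the 8 histone genes with every JQ1 library above every I-BET151 library, the promoters of the 3 with levels given above are shown. They are the 200 bases before the start in RefSeq (GRCh38.p14), read 5′ to 3′ on the strand of the gene. HIST1H1C is at chr6:26056471-26056670, HIST1H2AC at chr6:26123972-26124171 and HIST1H2BK at chr6:27146856-27147055. Capitals mark the motifs searched on both strands. The first is CCAAT and the next, a TATA box, is TATAAA. The octamer known from H2B promoters is ATTTGCAT, and a box known from H1 promoters is AAACACA.
HIST1H1C: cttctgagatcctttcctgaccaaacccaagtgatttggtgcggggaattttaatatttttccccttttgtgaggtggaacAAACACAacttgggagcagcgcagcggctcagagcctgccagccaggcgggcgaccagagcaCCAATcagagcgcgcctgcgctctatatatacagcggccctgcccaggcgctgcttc
HIST1H2AC: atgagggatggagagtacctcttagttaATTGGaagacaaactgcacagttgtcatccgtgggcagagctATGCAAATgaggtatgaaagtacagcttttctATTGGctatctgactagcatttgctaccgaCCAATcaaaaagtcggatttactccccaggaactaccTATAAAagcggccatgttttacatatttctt
HIST1H2BK: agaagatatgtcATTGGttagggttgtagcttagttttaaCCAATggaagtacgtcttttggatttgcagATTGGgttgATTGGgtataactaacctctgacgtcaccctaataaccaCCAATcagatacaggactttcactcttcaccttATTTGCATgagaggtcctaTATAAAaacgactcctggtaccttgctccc
In these windows HIST1H1C held CCAAT from base -57 and AAACACA from base -119, counted back from the start. HIST1H2AC held TATAAA from -31 and the octamer on the other strand from -130. HIST1H2BK held TATAAA from -30 and the octamer from -49, with 5 copies of CCAAT. A promoter was matched for 32 of the 38 genes. CCAAT occurred in 28 of these 32 windows (87.5%) against 28.8% of 27305 promoters of the same length, and TATAAA in 20 (62.5%) against 9.12%. The octamer occurred in 10 (5 H2A and 5 H2B genes) against 1.35%, and AAACACA in the 4 H1 promoters alone among the 32, against 3.88%. TATAAA ends with letters that open AAACACA, so these could share bases, but no 2 matches overlapped in the 3 windows shown. A match is a description of letters, not of a bound factor.

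Gene lists were then read by their counts, with 37 of 38 lists holding a tested member. None of their members passed between the inhibitors (limma). Their counts against DMSO stand beside all genes, of which 10.1% rose and 15.9% fell with JQ1, and 10.3% and 15.9% with I-BET151. The genes reported to rise under BET inhibition rose for 15 of 18 with JQ1 and 12 of 18 with I-BET151, with 0 falling. The median changes were 1.00 and 1.02. The list holds histone genes, and the median of the single differences was 0.31, with 15 of 18 higher with JQ1, although the medians against DMSO were in the other order. SAT1, the spermidine acetyltransferase, was chosen from it after its values were seen. It rose with JQ1, from 73.6 ± 7.13 to 112.5 ± 5.96 RPKM, and stood at 85.3 ± 7.72 with I-BET151, a difference of 0.40 (0.17 to 0.63). Leukaemia genes reported to fall did so for 9 of 13 with JQ1 and 8 of 13 with I-BET151, and 1 rose with JQ1 and 0 with I-BET151. Of the 13, 6 lay higher with JQ1 than with I-BET151 (median difference -0.05, turning to 0.02 without the library of steep GC slope).

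In the T-cell, B-lineage, myeloid and SLAM family lists a larger share fell than the 15.9% of all genes that fell with each inhibitor. Of 21 T-cell identity genes, 16 fell with JQ1 and 15 with I-BET151, with medians of -0.79 and -0.80 and a median difference of 0.01. That difference was -0.11 in experiment 1, 0.15 in experiment 2 and -0.08 without the library of steep GC slope. GATA3, a T-lineage factor named after its values were seen, fell by 0.98 and 0.69. B-lineage genes fell for 5 of 7 with each inhibitor, myeloid genes for 3 of 4 and SLAM family genes for 3 of 5. None of these lists had more than 2 members at an unadjusted p under 0.05 between the inhibitors. The 11 HOXA genes rose for 3 with JQ1 and 5 with I-BET151, and 6 of 11 lay higher with JQ1, against 10.1%, 10.3% and 47.6% of all genes.

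Growth and stress lists differed between the inhibitors by small amounts. All 40 ribosomal protein genes were higher with JQ1, with a median difference of 0.14, and 4 reached an unadjusted p under 0.05. That median was 0.07 in experiment 1, 0.24 in experiment 2 and 0.07 without the library of steep GC slope. Per library the ribosomal median relative to DMSO was 0.07, -0.02, 0.25 and 0.15 with JQ1 and 0.09, -0.17, -0.19 and 0.15 with I-BET151, so the groups overlapped. Of 25 MYC-driven growth genes, 10 fell with JQ1 and 14 with I-BET151 (15.9% of all genes with each), 1 rose with each, and 18 lay higher with JQ1 (median difference 0.12, and 0.08 without that library). Cholesterol genes lay lower with JQ1 for 18 of 21, with a median difference of -0.11 (-0.06 without that library). All 5 metallothionein and zinc response genes were lower with JQ1, and 3 of them fell with each inhibitor. Of 18 unfolded protein response and heat shock genes, 11 fell with JQ1 and 8 with I-BET151, and 2 and 1 rose.

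The p53 targets rose for 10 of 21 with JQ1 and 9 with I-BET151, and fell for 3 and 2. Immediate early genes rose for 7 and 5 of 13, and glycolysis and hypoxia genes for 10 and 8 of 21, with 0 falling in either list. Of all genes, 10.1% and 10.3% rose. Between the inhibitors the median differences of these 3 lists were 0.03, 0.19 and 0.06, and without the library of steep GC slope they were 0.05, 0.21 and -0.01. Interferon-stimulated genes fell for 8 of 24 with JQ1 and 9 with I-BET151, against 15.9% of all genes with each, and rose for 3 and 4. The G2 and mitosis genes, of which 18 of 20 lay higher with JQ1, differed by -0.04 to 0.18 at each gene, and none reached an unadjusted p under 0.05.

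**Figure D5:**
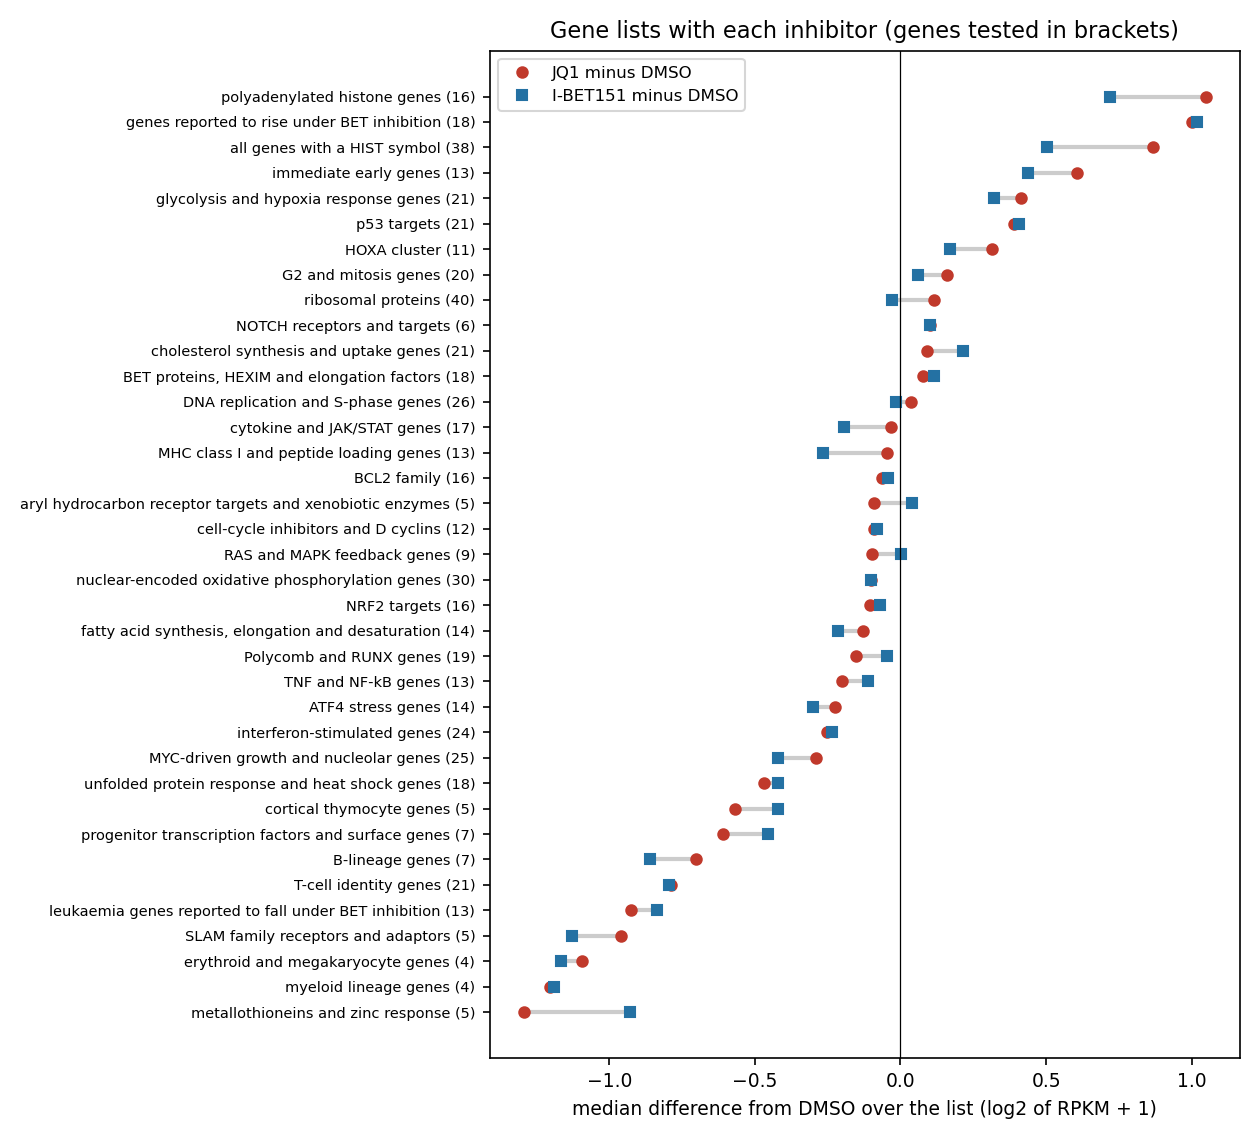
Median difference from DMSO over each gene list with at least 4 tested members, on the log2(RPKM + 1) scale, with circles for JQ1 and squares for I-BET151. The pair for T-cell identity genes nearly coincides (-0.79 and -0.80), and for all genes with a HIST symbol the circle is at 0.87 and the square at 0.50.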

How the data were processed

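RNA-seq libraries of LOUCY cells were made from polyadenylated RNA by Smart-seq2 and Nextera XT, per the labels' protocols, which do not mark the strand. The authors deposited RPKM for 15862 genes. STAR 2.5.1b, Subread 1.4.5-p1, featureCounts, edgeR 3.10.5 and the build hg38 are named in the submitters' processing notes. No source used here gives the annotation, gene lengths or settings, so genes with near-identical copies are uncertain. Gene RPKM values were whole multiples of 1 read for 100% of genes (within 0.01 reads), which gave the read totals.

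Genes at 1 RPKM or more in at least 4 of the 18 LOUCY libraries were analysed as log2(RPKM + 1), a scale that understates changes of low genes. limma 3.58.1 in R 4.3.3 fitted treatment and experiment, with two-sided moderated tests and Benjamini-Hochberg adjustment. The script was tested on simulated data. Nothing in the labels says that replicates were separate cultures, so p-values measure the spread between libraries, which may be technical. Replicate pairs differed by more than counting error (chi-square per degree of freedom 1.64 to 46.7). Positions are those of GENCODE 29, which matched 15322 genes (96.6%).

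Members and lists were chosen with earlier results of these data known. Named genes were the 12 leading genes, the 5 largest rises and 5 largest falls of the mean of both inhibitors among genes averaging at least 5 RPKM over the inhibitor or over the DMSO libraries (small RNA genes left out), and a panel of 17 genes, 36 tested genes in all. The values of 1 of them are not reported here. Other settings changed the pseudocount, filter, scaling, libraries, model and weights, and left out each library in turn.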

Additional observations from a re-analysis of the deposited data

Results flagged for a closer look

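Among the 36 named genes, 108 groups of 4 libraries were searched for a library whose gap to its nearest neighbour exceeded Dixon's 95% critical share of the range of its group, and 10 were found. Chance gives about 1 in 20 groups. In I-BET151 replicate 1 of experiment 2, the library of steep GC slope, MYB stood at 64.5 RPKM against 38.6 to 40.1 in the other I-BET151 libraries, and TIPARP at 6.96 against 2.41 to 3.11. In DMSO replicate 1 of experiment 2, the other library of steep slope, BRD2 was at 5.31 RPKM against 7.15 to 7.28 and LCK at 136.9 against 187.7 to 193.3. In JQ1 replicate 1 of experiment 1, BRD2 was at 13.6 RPKM against 11.4 to 11.7, HIST1H2BK at 84.8 against 95.9 to 98.1 and SMIM14 at 17.9 against 21 to 21.3. In JQ1 replicate 2 of experiment 2, SERPINI1 was at 3.25 RPKM against 6.1 to 6.47. In DMSO replicate 2 of experiment 2, CDK6 was at 84.8 RPKM against 103.5 to 107.2 and PTRHD1 at 60.7 against 49.8 to 51.2.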

How the results depend on the processing

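Of 29 other settings for JQ1 against I-BET151, 24 called 0 genes. A pseudocount of 5 called 1 (SNORD3A), the fits of 12 and of 8 libraries each called 1 (SNORD23), experiment 1 alone called 1 (PTPN6) and weighted libraries called 15. Leaving out any 1 library called 0 to 0. The test by experiment called 1 with a pseudocount of 0.1 (ACTG2) and 0 to 2 when 1 library was left out, the 2 (MIR4712 and LINC01215) without I-BET151 replicate 2 of experiment 2. Experiment 2 alone called 391 genes with JQ1, 456 with I-BET151 and 740 with their mean, against 2971, 2999 and 3673, and weighted libraries called 4743 with JQ1. Leaving out 1 library gave 2295 to 3436, 2410 to 3187 and 3001 to 3953. Of the 36 named genes, 17 kept the direction of JQ1 minus I-BET151 in every setting that gave a value.

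Turns of direction larger than 1 standard error of the difference are given here, and smaller ones, as for SMIM14, EFR3B and LYL1, are not. JQ1 minus I-BET151 turned in experiment 1 alone for ELOVL4 (0.277), MB (-0.305), VPREB1 (-0.28), HPGDS (-0.318), ACTG2 (-0.802), HHEX (0.0632), BCL2 (0.0689), TIPARP (0.0546), BRD3 (-0.0651) and the median of genes that fell by at least 1 (-0.104). It turned in experiment 2 alone for LCK (0.196) and HEXIM1 (-0.0806), as did I-BET151 minus DMSO for CDK6 (0.00412), and with weighted libraries for VPREB1 (-0.0888) and HPGDS (-0.21). Without the 2 libraries of steep GC slope, a setting chosen after seeing the data, it turned for VPREB1 (-0.0998), HHEX (0.0793), TIPARP (0.0515), MYB (0.027) and CDK6 (0.0218). When 1 library was left out, the range was -0.0964 to 0.174 for VPREB1, -0.273 to 0.0752 for HHEX, -0.397 to 0.043 for TIPARP, -0.235 to 0.0239 for MYB and -0.286 to 0.017 for CDK6, each turning without I-BET151 replicate 1 of experiment 2, and -0.161 to 0.141 for SERPINI1, turning without JQ1 replicate 2 of experiment 2. The cause was not tested.

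With the replicate number as a block, 0 genes differed between the inhibitors, 2836 with JQ1 and 2883 with I-BET151. The numbers were not taken to pair samples: same-numbered libraries correlated at 0.368, -0.0209, -0.158 and -0.0466, and 1 of 4 correlated best with its own number. With 4 libraries a group and 4381134 to 7074198 reads each, depth limits the genes under 1 RPKM most.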
